A study of Homo sapiens with 4 samples.

Results

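The genes described here are the solute carrier transporters of TPC1 cells, an established line grown from a human papillary thyroid carcinoma. They were chosen by name alone, as every gene of the table whose symbol is SLC, a family number, A and a member number, or SLCO with a family number. SLC2A1, SLC2A3, SLC16A1, SLC16A3, SLC5A5 and antisense entries were left out. The rule gave 186 of 13165 genes, in 45 families, and it used no measured value. It also leaves out carriers with another letter in their symbol, such as those of the SLC35B to SLC35F series. RNA was sequenced from a TPC1 line carrying the empty vector (TPC1-Vector) and a TPC1 line expressing C1orf106, now named INAVA (TPC1-C1orf106), with 2 libraries in each group. Both lines had received their vector in the same way and were selected as stable lines with puromycin at 0.5 μg/mL, so the controls had passed through the same selection. Whether the libraries of a group came from separate cultures was not stated, and each group is 1 selected line.

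Solute carriers are membrane proteins that move small molecules across the plasma membrane or the membranes of organelles, by facilitated diffusion, exchange, or coupling to sodium, proton or other ion gradients. They bring in amino acids, sugars, phosphate, vitamins and metals, and the large SLC25 family links the mitochondrial matrix to the cytosol. In the thyroid, members of the superfamily take up iodide, while tumour cells are known for high levels of amino acid and monocarboxylate carriers.

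The deposited values were FPKM, a fragment count divided by transcript length and by the size of the library, with 1 value per gene and group, given here as the authors' value for the group. Each value combines the 2 libraries of its group, so no value has an SD or standard error, no difference has a replicate check, and the combined values allow no test of a difference. The p-values and q-values deposited beside them were not used here. The number of reads behind a value is unknown. C1orf106 itself had 7.96 FPKM in the vector line and 122.5 FPKM in TPC1-C1orf106. Of 6 thyroid follicular markers 2 had a value, PAX8 at 60.1 and 55.7 FPKM and FOXE1 at 5.26 and 5.89 FPKM, and the other 4 were not analysed here. Of 5 epithelial markers 3 had a value, the keratins KRT8 at 23.4 and 10.5 FPKM, KRT18 at 140.3 and 211.7 FPKM and KRT7 at 1.97 and 2.01 FPKM. Of 10 leukocyte, endothelial and fibroblast markers 2 had a value, CD68 at 5.76 and 8.67 FPKM and COL1A1 at 0.937 and 0.571 FPKM. The part of these differences between the lines in the values of the carriers was not tested, and in bulk RNA fewer cells with a transcript and less of it per cell cannot be told apart.

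In the vector line the carriers at the highest level supplied amino acids, adenine nucleotides and phosphate. SLC7A5, the large neutral amino acid transporter LAT1, ranked first with 483.9 FPKM in the vector line and 467.0 FPKM in TPC1-C1orf106. Its partner SLC3A2, the heavy chain that carries LAT1 to the cell surface, was at 328.7 and 309.5 FPKM. The SLC7A5 level was 1.47 times that of SLC3A2 in TPC1-Vector and 1.51 times in TPC1-C1orf106. Their log2 fold changes (TPC1-C1orf106 over TPC1-Vector, 0.5 FPKM added to each value) were -0.051 and -0.087. The table also lists SLC7A5P1 and SLC7A5P2, copies of SLC7A5 that can take some of its reads.

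Of the 6 members with the highest mean level, 3 were mitochondrial carriers. SLC25A5, an ADP/ATP carrier, was at 418.0 and 407.9 FPKM, and its close relative SLC25A6 was at 263.8 and 261.0 FPKM. The mitochondrial phosphate carrier SLC25A3 was at 391.6 and 370.9 FPKM. SLC25A4, the ADP/ATP carrier of muscle and heart, was at 3.85 and 3.52 FPKM, so SLC25A5 exceeded it 108.6-fold and 115.7-fold. SLC25A5 and SLC25A6 are close copies of each other with many pseudogenes, so the level of each is uncertain.

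The plasma membrane phosphate importer SLC20A1 had 288.2 FPKM in the vector line and 225.9 FPKM in TPC1-C1orf106. It had the largest difference, as a log2 fold change, of the 20 members at a mean of 50 FPKM or more. SLC1A5, a glutamine and neutral amino acid exchanger, had a mean of 106.2 FPKM and a log2 fold change of 0.0047. SLCO4A1, an organic anion transporter that also carries thyroid hormone, was at 113.4 and 98.5 FPKM. The zinc importer SLC39A1 was at 93.1 and 95.6 FPKM, and SLC38A2, a sodium-coupled amino acid importer that is induced when amino acids are scarce, was at 97.9 and 80.0 FPKM. These 10 members held 52.6% of the summed FPKM of all 186 in TPC1-Vector and 51.0% in TPC1-C1orf106. The sum itself was 4918 and 4747 FPKM. Without replicate values, neighbours in this order cannot be said to differ.

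**Figure D1:**
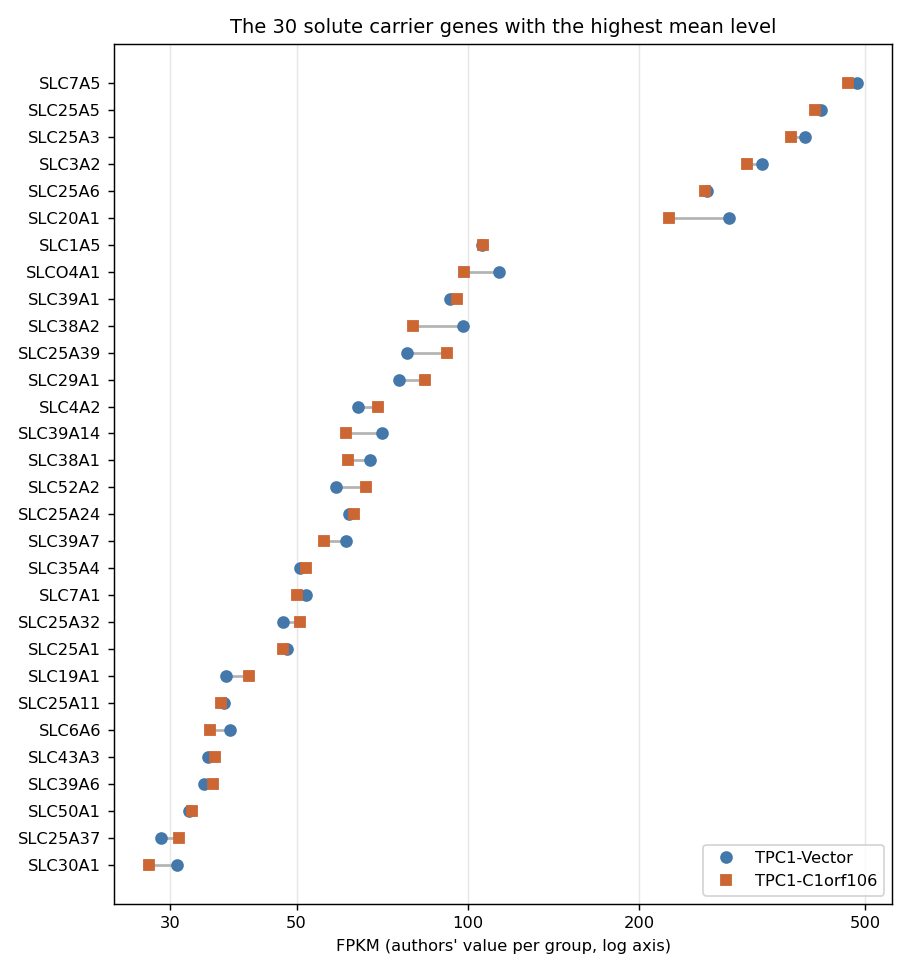
FPKM of the 30 solute carrier genes with the highest mean level, on a log axis, with 1 point for the authors' value in TPC1-Vector (circles) and 1 for TPC1-C1orf106 (squares). SLC7A5 leads in both lines, and the widest gap among the first 10 is that of SLC20A1, from 288.2 to 225.9 FPKM.

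To compare the lines across the superfamily, genes were kept where their mean of the groups reached 0.5 FPKM, and the log2 fold change was taken between values with 0.5 FPKM added, TPC1-C1orf106 over TPC1-Vector. This addition understates the change of weakly expressed genes. Of the 186 members 172 were kept. A gene was counted as changed in size when it was at least 1.5-fold higher or lower on this scale, which is a cutoff on size and not a test. By this count 2 members were higher and 5 lower in TPC1-C1orf106, or 1.16% and 2.91% of those kept. Among all 12305 genes kept, 2.24% were higher and 1.45% lower past the same fold. The counts depended on the addition. With 0.1 FPKM added, 4 members were higher and 12 lower, or 2.33% and 6.98% of those kept, against 3.06% and 2.35% of all genes. Whether the members differ from all genes in these shares was not tested.

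The median log2 fold change was -0.035 over the members and 0.0033 over all genes kept. The quartiles of the members were -0.17 and 0.11, and those of all genes -0.12 and 0.13. Below 0 were 99 members and above 0 were 73, against 6049 and 6256 of all genes. Of all 1735 genes at a mean of 50 FPKM or more, 1.27% were higher and 0.69% lower past the fold. None of the 20 members at that level was past it, and their log2 fold changes ranged from -0.35 (SLC20A1) to 0.24. The upper end was SLC25A39, a mitochondrial glutathione carrier, at 78.1 and 92.1 FPKM. All 7 members past the fold had a mean under 20 FPKM. Of all genes from 20 to 50 FPKM, 0.86% were higher and 0.98% lower past it.

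**Figure D2:**
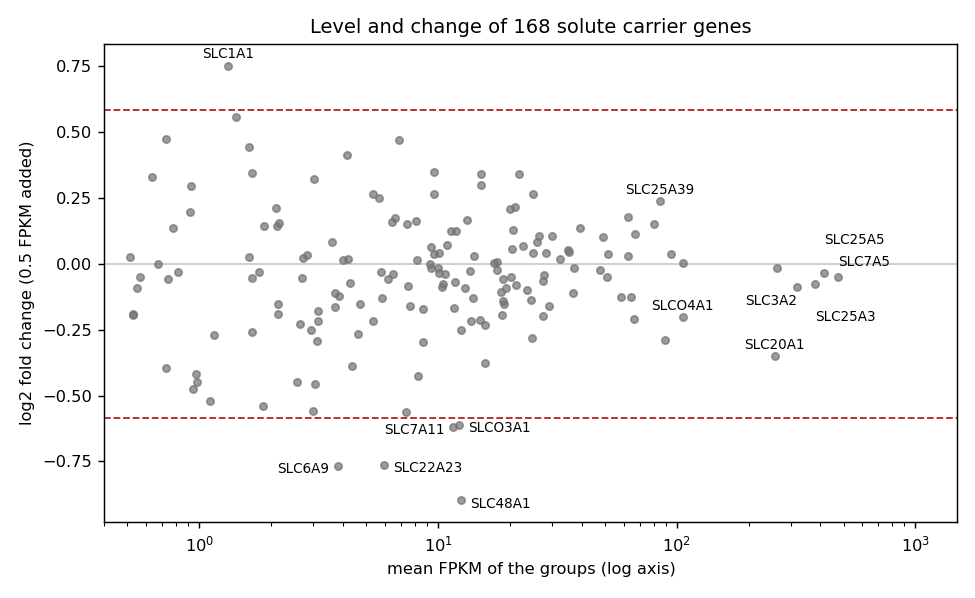
Log2 fold change (0.5 FPKM added) of 168 of the 172 solute carrier genes kept, against their mean FPKM over the groups on a log axis, 1 point per gene, with dashed lines at a fold of 1.5. The 6 points beyond the lines lie under 20 FPKM, while the most highly expressed carriers lie close to 0.

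Of the 2 members higher past the fold, SLC1A1 is a glutamate, aspartate and cysteine importer on chromosome 9 (4490427 to 4587469, hg38). It had 0.852 FPKM in the vector line and 1.78 FPKM in TPC1-C1orf106, a log2 fold change of 0.75. With 1 FPKM added in place of 0.5 it was just under the fold, at 0.584 against the cutoff of 0.585, so its place above the cutoff depends on how low values are treated.

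The 5 members lower past the fold came from different families. SLC48A1, which carries heme from endosomes and lysosomes to the cytosol, had 16.4 FPKM in the vector line and 8.58 FPKM in TPC1-C1orf106, a log2 fold change of -0.90. It is on chromosome 12 (47773184 to 47819980), where the table gives HDAC7 the same position. HDAC7, a histone deacetylase, was at 33.8 and 30.2 FPKM, a log2 fold change of -0.16, so the entries that share the position did not differ alike.

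SLC6A9, the glycine transporter GlyT1, was at 4.93 and 2.69 FPKM, a log2 fold change of -0.77. It lies on chromosome 1 (43991608 to 44031492), at a position shared with CCDC24, which was at 0.733 and 0.785 FPKM. SLC22A23, a member of the organic ion transporter family without a well-established substrate, was at 7.58 and 4.26 FPKM, a log2 fold change of -0.76. It lies on chromosome 6 (3268974 to 3456559).

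SLC7A11, the xCT subunit that imports cystine in exchange for glutamate, had 14.2 FPKM in the vector line and 9.05 FPKM in TPC1-C1orf106, a log2 fold change of -0.62. It lies on chromosome 4 (138027423 to 138242349). SLCO3A1, an organic anion transporter known for prostaglandins, was at 14.9 and 9.58 FPKM, a log2 fold change of -0.61, on chromosome 15 (91853708 to 92172435). Both lie close to the cutoff of 0.585 on the log2 scale. Just inside it were SLC2A11, a glucose transporter family member, at -0.56, the lysosomal sialic acid exporter SLC17A5 at -0.56, and SLC46A3, a lysosomal carrier, at 0.56.

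**Figure D3:**
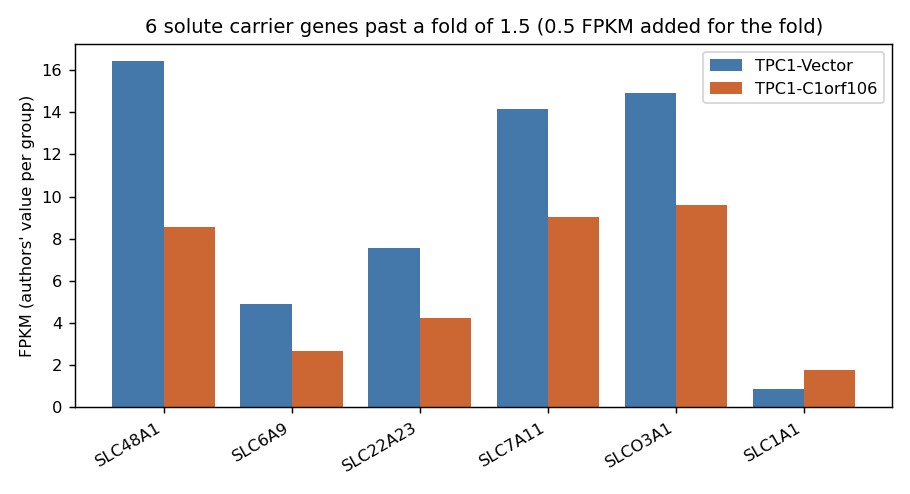
FPKM of 6 of the 7 solute carrier genes past a fold of 1.5, with bars from 0 for the authors' value in TPC1-Vector and in TPC1-C1orf106 and no error bars because each group has 1 value. The 5 genes at the left are lower in TPC1-C1orf106, SLC48A1 from 16.4 to 8.58 FPKM, and SLC1A1 is higher.

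Amino acid carriers (families SLC1, SLC3, SLC6, SLC7, SLC36, SLC38 and SLC43) were mostly a little lower in TPC1-C1orf106. Of 25 members kept 18 were below 0 and 7 above, with a median log2 fold change of -0.093, 1 higher past the fold (SLC1A1) and 2 lower (SLC6A9 and SLC7A11). Above 0 were 28% of these 25, against 42.4% of all members kept and 50.8% of all genes. Past the fold, 4% were higher and 8% lower, against 2.24% and 1.45% of all genes. These shares of all genes also stand beside the counts of the groups that follow. Whether any group differs from all genes was not tested. Of the SLC38 family 5 of 6 were below 0. SLC38A2, at -0.29, and SLC38A6, at -0.38 with 17.9 and 13.7 FPKM, had the largest differences, and SLC38A10 was above 0 at 0.22. The glutamate importer SLC1A3, at 5.02 and 3.72 FPKM, was at -0.39, opposite to SLC1A1. Of the heavy chain SLC3A2 and its 4 light chains kept (SLC7A5, SLC7A6, SLC7A7 and SLC7A11), only SLC7A11 was past the fold. The level of SLC7A11 was 0.0431 times that of SLC3A2 in TPC1-Vector and 0.0292 times in TPC1-C1orf106.

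Mitochondrial carriers of the SLC25 family formed the largest group and lay close to 0. None of the 38 kept was past the fold, where 2.24% of all genes kept were higher and 1.45% lower. The 38 had a median of -0.029 and a median absolute log2 fold change of 0.083, against 0.14 over all members kept and 0.12 over all genes. Over all genes this size fell with level, from 0.16 at 1 to 5 FPKM to 0.10 at 20 to 50 FPKM. The median vector level was 15.6 FPKM for the 38 and 11.3 FPKM for all genes kept, which was not allowed for. The summed level of the 38 was 1727 FPKM with the vector and 1710 FPKM in TPC1-C1orf106. The mitochondrial iron importers SLC25A37 and SLC25A28 were at 28.9 and 31.1 FPKM and at 9.59 and 7.72 FPKM. The glutamate carrier SLC25A22, at 22.7 and 27.3 FPKM, had a log2 fold change of 0.26.

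Metal and heme carriers (SLC11, SLC30, SLC31, SLC39, SLC40, SLC41 and SLC48) had 25 members kept, with a median of -0.037 and SLC48A1 alone past the fold. Of the 11 SLC39 genes, which bring zinc into the cytosol, 6 were above 0 and 5 below, from -0.21 for SLC39A14 (70.8 and 61.1 FPKM) to 0.34 for SLC39A13 (19.2 and 24.4 FPKM). SLC39A6 was at 34.3 and 35.6 FPKM. Of the 6 SLC30 genes, which move zinc out of the cytosol, 3 were above 0. The zinc exporter SLC30A1 was at 30.8 and 27.5 FPKM. The copper carriers SLC31A1, at 27.2 and 22.3 FPKM, and SLC31A2, at 8.04 and 7.15 FPKM, were both below 0.

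Ion exchangers and cotransporters (SLC4, SLC8, SLC9, SLC12, SLC24 and SLC26) had 24 members kept and none past the fold, with 14 above 0 and a median of 0.030. The sodium-proton exchangers, which raise cytosolic or organelle pH, included SLC9A7 at 2.63 and 3.41 FPKM (0.32) and SLC9A8 at 4.80 and 5.86 FPKM (0.26). SLC9A9 was at -0.19, and 3 of the 5 SLC9 genes kept were above 0. The sodium-bicarbonate importer SLC4A7 was at 13.6 and 16.8 FPKM (0.30), and the chloride-bicarbonate exchanger SLC4A2, the highest of the group, at 64.1 and 69.4 FPKM (0.11). The potassium-chloride cotransporter SLC12A4 was at 8.38 and 10.8 FPKM (0.35), and the sodium-potassium-chloride cotransporter SLC12A2 at 6.28 and 6.01 FPKM (-0.058). Each of these values is a log2 fold change within the fold of 1.5.

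Of the SLC16 family without SLC16A1 and SLC16A3, 6 of 8 members kept were below 0. The aromatic amino acid carrier SLC16A10 was above 0, at 0.781 and 1.07 FPKM. SLC16A4, at 2.28 and 1.41 FPKM, was at -0.54 and SLC16A7, a monocarboxylate transporter, at 5.11 and 4.16 FPKM, at -0.27. Of members tied to thyroid anion transport, SLC26A7 was at 0.271 and 0.416 FPKM, under the filter, and SLC26A4, SLC5A8 and SLC34A2 were not analysed here.

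The smaller groups held few members each. Of 11 organic ion and bile acid carriers kept, SLC22A23 and SLCO3A1 were lower past the fold, and SLCO1B3, a liver-type organic anion importer also found in tumours, was at 13.3 and 16.9 FPKM (0.34). Its neighbours on chromosome 12, SLCO1B7 and SLCO1B1, were at 0.523 and 0.921 FPKM and at 0.362 and 0.538 FPKM. Their sequences are so alike that reads may have been shared out among them, so each value is uncertain. Of 6 members of families grouped as vitamin carriers (SLC19, SLC23, SLC46 and SLC52) 5 were above 0. This grouping is by family, so it holds the lysosomal carrier SLC46A3. The riboflavin transporter SLC52A2 was at 58.6 and 66.3 FPKM and the folate carrier SLC19A1 at 37.5 and 41.2 FPKM. All 3 choline carriers of the SLC44 family were below 0, from -0.42 for SLC44A3 to -0.21 for SLC44A2. Of 14 sugar and sodium-coupled solute carriers kept 7 were above 0 and none was past the fold, SLC50A1 being the highest at 32.3 and 32.7 FPKM. The fatty acid carrier SLC27A4 was at 28.1 and 26.9 FPKM, SLC35A4 of the nucleotide sugar family at 50.6 and 52.0 FPKM and the lysosomal carrier SLC15A4 at 19.1 and 17.7 FPKM. The nucleoside transporter SLC29A1 was at 75.7 and 84.2 FPKM. SLC17A3, a urate and phosphate carrier known from kidney, was at 5.67 and 8.05 FPKM (0.47).

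**Figure D4:**
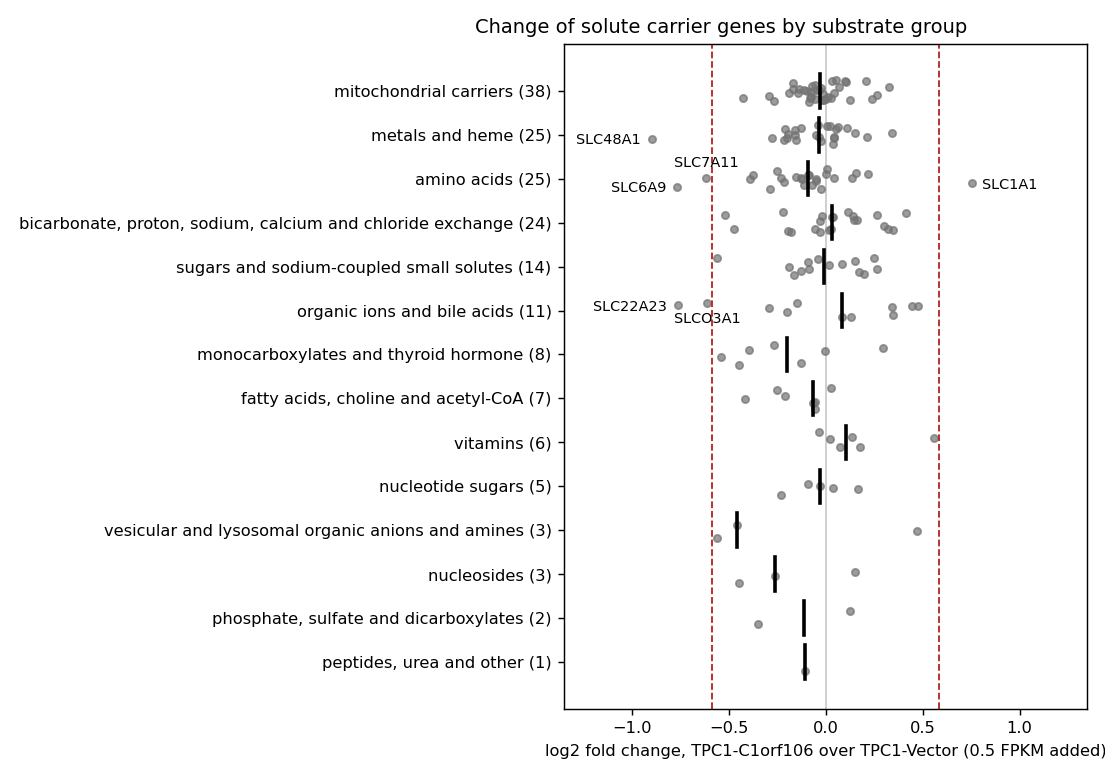
Log2 fold change, TPC1-C1orf106 over TPC1-Vector with 0.5 FPKM added, of 168 of the 172 solute carrier genes kept, 1 point per gene in rows by substrate group, with the number kept in brackets, black bars at the medians of all kept and dashed lines at a fold of 1.5. The mitochondrial carriers cluster around 0, and the 6 named genes lie beyond the lines.

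Some members lie where neighbouring genes also differed between the lines. For each member the median log2 fold change of the other genes kept within 5 Mb was taken, and 168 members had at least 10 such neighbours. This median reached 0.2 in either direction for 7 of them. On chromosome 10, SLC25A16 was at 9.55 and 6.97 FPKM (-0.43), the vesicular amine transporter SLC18A2 at 3.63 and 2.51 FPKM (-0.46), the lysosomal nucleoside transporter SLC29A3 at 1.20 and 0.748 FPKM (-0.45), and SLC25A28 at -0.30. The medians of their neighbours were -0.36, -0.31, -0.31 and -0.31. These 4 members differed from their neighbours by -0.15 to 0.019. On chromosome 20, SLC9A8 at 0.26 and the glucose transporter SLC2A10 at 0.15 had neighbours at 0.34 and 0.33. SLCO4A1, on the same chromosome (62642445 to 62672295), was at -0.20 among neighbours at 0.35, and lay 0.56 below them. The part of the position in these values was not tested.

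None of the 7 members past the fold lies in such a region. The medians of their neighbours ranged from -0.037 to 0.066, and log2 fold changes less those medians were 0.69 for SLC1A1, -0.87 for SLC48A1, -0.77 for SLC6A9, -0.73 for SLC22A23, -0.64 for SLCO3A1 and -0.58 for SLC7A11. The last value is just within the fold of 1.5.

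**Figure D5:**
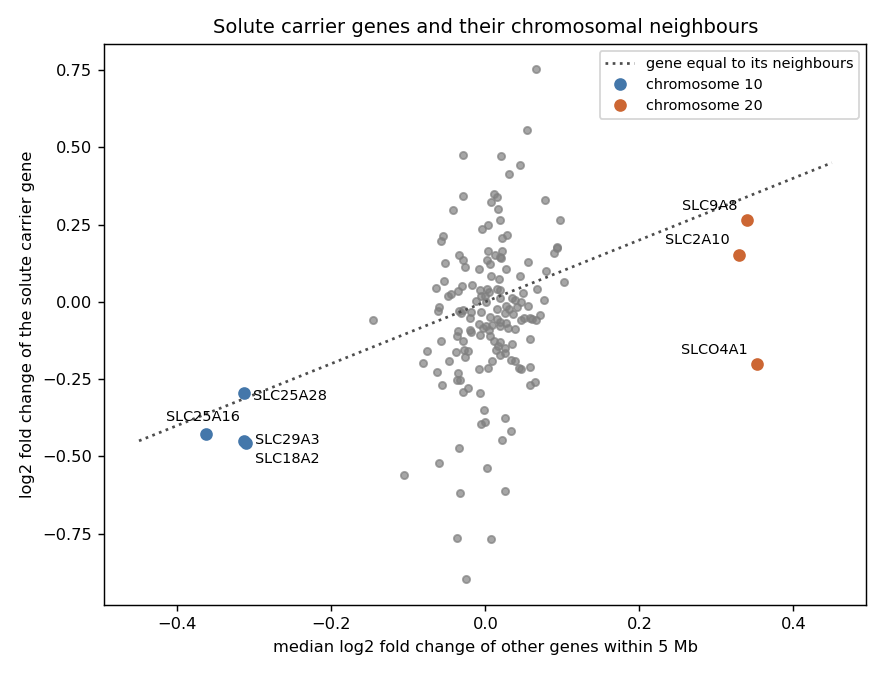
Log2 fold change of each of 164 solute carrier genes against the median log2 fold change of the other genes within 5 Mb, with coloured points for the 7 genes whose neighbours reached 0.2 in either direction and a dotted line where gene and neighbours are equal. The 4 genes on chromosome 10 lie near the line, and SLCO4A1 on chromosome 20 lies 0.56 below its neighbours.

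Other transport genes were read from lists, beside 2.24% of all genes kept higher and 1.45% lower past the fold. Whether a list differs from all genes was not tested. Of 27 solute carriers under other symbols kept, 0 were higher and 1 lower past the fold, the mitochondrial carrier UCP2, at 38.6 FPKM with the vector and 22.8 FPKM with C1orf106. Of 22 ABC transporters, the pumps that use ATP, none was past the fold, and their median was -0.062. Of 15 proteins that assist carriers or supply their ions, 2 were higher and 1 lower, or 13.3% and 6.67%. The sodium pump modulator FXYD5 was at 75.3 and 128.8 FPKM, and PDZK1IP1, a small membrane protein that binds the scaffold PDZK1, at 1.81 and 12.6 FPKM. Carbonic anhydrase CA12, which supplies bicarbonate and protons at the cell surface, was at 17.9 and 7.07 FPKM. These 4 genes are named after their values were seen. BSG, the chaperone of the monocarboxylate carriers, was at 346.2 and 394.2 FPKM. Of the genes left out by name, SLC2A1 was at 44.6 and 39.2 FPKM, SLC16A1 at 72.0 and 72.0 FPKM, SLC16A3 at 105.0 and 121.6 FPKM and SLC2A3 at 0.925 and 0.446 FPKM.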

How the data were processed

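TPC1-Vector and TPC1-C1orf106 cells were compared by RNA-seq, with 2 libraries per group. The values the authors deposited are FPKM, with 1 for each gene in each group, and their processing notes name CASAVA, Cufflinks 2.1.1, Cuffdiff and the build hg38; the aligner and annotation are not given in the sources used here. The deposited columns with the log2 ratio between groups, its p-value and its q-value were not used. Because the values combine libraries, replicate error, depth and whole reads could not be recovered from them.

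Genes were kept from a mean of 0.5 FPKM upwards, fold changes were differences of log2(FPKM + 0.5), and a fold of 1.5 was the cutoff of size. Deposited starts count from 0 and are given from 1. All 180 members on main chromosomes overlapped their namesake in GENCODE release 29, 6 were listed on alternate contigs, and 30 share their position with another entry, so that their values may be split between genes. Named genes were those past the fold, the highest of each substrate group, the 10 highest of all, and preset members; some are not reported or drawn here, and others are named beside their group's count. The members, lists and cutoffs were chosen with earlier results of these data known. The shared functions were tested on simulated data. Alternatives were other filters, pseudocounts, scalings, a fold of 2, member rules and subtraction of neighbours. Python 3.11.15, numpy 2.4.6, pandas 2.3.3 and matplotlib 3.10.9 were used.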

Additional observations from a re-analysis of the deposited data

How the results depend on the processing

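No paired analysis was possible because every gene has a single value in each group, and for the same reason leaving out each library was not run. The counts of 2 higher and 5 lower members were the same at a mean of at least 1 FPKM, with median-of-ratios scaling and with quantile normalization. They were 1.29% and 3.23% of the members at 1 FPKM, and 1.16% and 2.91% with either scaling. The shares of all genes higher and lower were 1.95% and 1.33%, 2.22% and 1.48%, and 2.13% and 1.51%, in that order. With 0.1 FPKM added they were 4 and 12 (2.33% and 6.98% of the members, 3.06% and 2.35% of all genes), and with no addition, chosen after the data were seen, 5 and 13 (2.91% and 7.56% of the members, 3.34% and 2.67% of all genes), since a smaller addition shrinks weak genes less. With 1 FPKM added, 1 was higher, since SLC1A1 came just under the fold, and 5 were lower. These were 0.581% and 2.91% of the members, against 1.63% and 1.01% of all genes. At a fold of 2 there were 0 higher and 0 lower members, against 0.61% and 0.244% of all genes. Without members that share a position, 2 were higher and 3 lower, since SLC48A1 and SLC6A9 share theirs. These were 1.38% and 2.07% of the members left, against 2.24% and 1.45% of all genes. The median log2 fold change of the members ranged from -0.059, less neighbours, to -0.029, without a filter. Depth is unknown, so no value has a counting error.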

Other observations

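Of the members under the filter, SLC28A3 and SLC47A2, chosen after their values were seen, had wide ratios at low levels. SLC28A3, a concentrative nucleoside transporter, had 0.119 FPKM with the vector and 0.664 FPKM with C1orf106, and SLC47A2, a multidrug and toxin extruder, at 0.820 and 0.125 FPKM. With 0.5 FPKM added their log2 fold changes were 0.91 and -1.08. Without a filter they brought the counts past the fold to 3 higher and 6 lower members. These were 1.61% and 3.23% of the 186 members, against 2.51% and 1.5% of all 13165 genes. The organic cation transporters SLC22A4 and SLC22A5 are listed at 1 shared position on chromosome 5 (132294452 to 132395614), at 1.30 and 1.94 FPKM and at 3.49 and 3.73 FPKM, and reads may be split between them, which was not tested.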
